A study of Mus musculus with 3 samples.

Results

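Old blood-forming stem cells were divided by how much of their open chromatin signal lay at transcription start sites (TSS). The members were 1814 cells of 3629. The promoter-focused cells were the 907 with the highest share of ATAC fragments at TSS, and the low-share cells were the 907 with the lowest share. The remaining 1815 cells are called middle cells, and they served as an outside reference for which sites are open. Members were chosen by their own ATAC fragments. All were long-term hematopoietic stem cells (LT-HSCs), negative for lineage markers, CD48 and CD34 and positive for Sca-1, c-Kit and CD150. They had been sorted from marrow, enriched for c-Kit, of 24-month-old C57BL/6 females of wild-type genotype, with no treatment and no other genotype. They were profiled by DOGMA-seq, which reads accessible chromatin (ATAC), RNA and oligonucleotide-tagged antibodies in the same cell. The 3 libraries, 1 for each readout, came from 1 pool, so both groups were cells of 1 sample and no test between them was possible. Intervals given below are exact 95% intervals and cover counting error only.

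In ATAC-seq a transposase cuts DNA that is not packed by nucleosomes, so fragments pile up at open sites. The promoters of most active genes are open in every cell type and rich in CpG dinucleotides, whereas enhancers lie farther away and differ between cell types. Fragments between such sites are a sparse background from closed chromatin, and the share of fragments at TSS is widely used as a measure of signal over that background.

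The share at TSS chose the groups, so it is given as a description. Its median was 50.1% in promoter-focused cells, 46.9% in middle cells and 43.8% in low-share cells, and single cells ran from 19.3% to 59.3%. The thresholds fell inside a continuous distribution: the low-share cell nearest to the middle had 45.039% and the next middle cell 45.042%, while at the upper threshold the values were 48.759% and 48.764%. Counting error alone gave a cell an SD of 0.555 percentage points in promoter-focused and 0.438 in low-share cells, so membership of cells near either threshold was not certain.

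**Figure D1:**
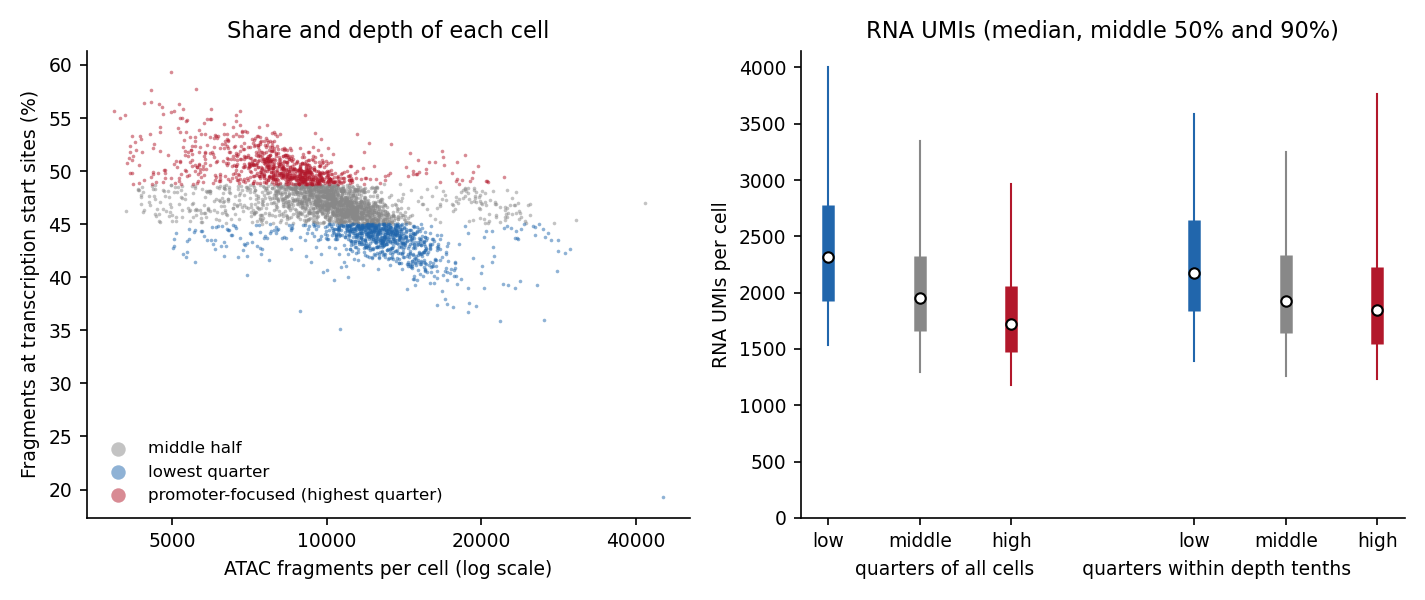
Left, each of the 3629 cells by its ATAC fragments (log scale) and its share of fragments at TSS (%), with promoter-focused cells in red, middle cells in grey and low-share cells in blue. Right, RNA UMIs per cell for the 3 groups (circle, median; thick bar, middle 50% of cells; thin line, middle 90%), for groups drawn over all cells and for groups drawn within 10 bins of ATAC fragments; the promoter-focused median is the lowest in both, at 1724 and 1845 UMIs.

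Cells with a high share had fewer fragments. The median was 8112 ATAC fragments in promoter-focused cells, 10342 in middle cells and 12808 in low-share cells, and across cells the share and the number of fragments had a rank correlation of -0.629. Both come from the same fragments, so this value is a description. The groups were therefore also drawn within each of 10 equal bins of ATAC fragments, which gave 900 cells on each side with medians of 10296 and 10300.5 fragments. Values from these depth-matched groups stand beside the main ones. Stretches with more overlapping fragments than 2 copies of the genome allow were counted in each cell. Cells were flagged for an excess over the mean of all cells, without correction for ATAC depth. Flagged cells made up 3.86% (2.70 to 5.33) of promoter-focused cells and 13.0% (10.9 to 15.4) of low-share cells. Their part in the results was not tested beyond leaving them out.

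The low-share cells had been named distally open, and the data fitted that name only in part. Low-share cells held a larger share of fragments in distal windows with little signal and in weakly open ones. The strongest open distal windows held a larger share in promoter-focused cells. A higher share at TSS leaves less for all other sites together, so a larger distal total in low-share cells follows largely from the rule. The rule does not by itself set how distal fragments divide between windows. The genome was cut into 500 bp windows at least 10 kb from any transcript start used here. A window was called open if the middle cells held 8 or more fragments in it, which was over 5 times the mean. By this measure 113541 of 3811410 distal windows (2.98%) were open. Open distal windows took 15.8% of the nuclear fragments of promoter-focused cells, 16.4% of those of low-share cells and 16.9% of those of middle cells. The other distal windows took 11.03%, 15.4% and 12.2%. On the log2 scale, promoter-focused over low-share cells, the shares differed by -0.06 in open windows and by -0.48 in the others, and in depth-matched groups by -0.05 and -0.36. The value for open windows pools both directions: the 61620 windows with 10 to 29 fragments in middle cells, the most numerous of the open ones, were at -0.23 (4.446% against 5.205%), and windows with 100 or more were above 0. It therefore depends on where the threshold for open is set. Of all fragments beyond 10 kb, 58.8% of those of promoter-focused cells lay in open windows, against 51.6% in low-share cells. Middle cells, with the same limit, had 58.1%. Depth-matched groups had 58.3% and 52.9%. Between 1 and 10 kb from a start the same division held, with 16.88% against 16.96% in open windows and 7.89% against 10.2% in the others. The low-share cells are called by their rule in what follows.

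**Figure D2:**
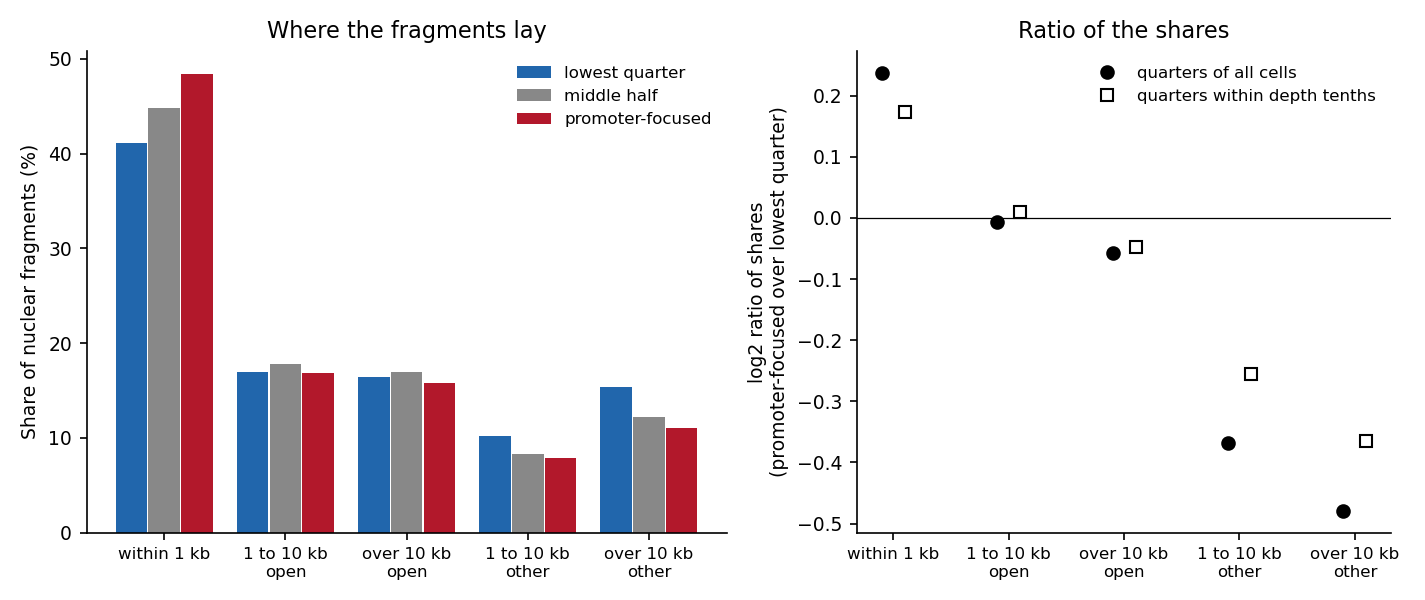
Left, share of nuclear fragments (%) within 1 kb of a transcript start and in open or other windows at 1 to 10 kb and over 10 kb, in low-share (blue), middle (grey) and promoter-focused cells (red). Open windows were chosen by the fragments of the middle cells, whose values lean to them. Right, log2 ratio of the shares, promoter-focused over low-share cells, for groups drawn over all cells (circles) and within 10 bins of ATAC fragments (squares); open windows lie near 0, from -0.06 to 0.01, and the other windows lie from -0.25 to -0.48.

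Within 1 kb of a start lay 48.4% of nuclear fragments in promoter-focused and 41.1% in low-share cells. This total was fixed by the rule, and so was its sign, so the spread over 20 chromosomes, from 6.80 to 8.56 percentage points, is a description of how evenly the difference was laid out.

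The strongest sites far from the gene starts used here took a larger share of fragments in promoter-focused cells, and so did strong promoters. For promoters that direction follows from the rule, which chose cells by fragments at starts, and their values are given beside the distal ones as a description. Sites were ranked by their fragments in the middle cells, which neither group holds, and fragments were scaled by all nuclear fragments. In the 2497246 distal windows where the middle cells had no fragment, promoter-focused cells had 3.10% of their fragments and low-share cells 4.73%, a log2 ratio of -0.61. The ratio increased in every step of strength, through -0.35 for windows with 3 to 9 fragments, -0.23 for 10 to 29 and -0.05 for 30 to 99, to 0.14 for 100 to 299. At the top, 392 distal windows with 300 or more fragments in middle cells held 0.986% of the fragments of promoter-focused cells and 0.769% of those of low-share cells, at 0.36 (0.34 to 0.37). Promoters showed the same order, from -0.73 where the middle cells had no fragment to 0.40 for the 2085 promoters with 1000 or more. In depth-matched groups the strongest distal windows were at 0.22 and the strongest promoters at 0.25. Gene bodies, the span of a gene outside all promoters, ran from -0.65 to -0.13. Values below 0 for gene bodies as a class follow largely from the rule too, since more fragments at starts leave fewer elsewhere.

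**Figure D3:**
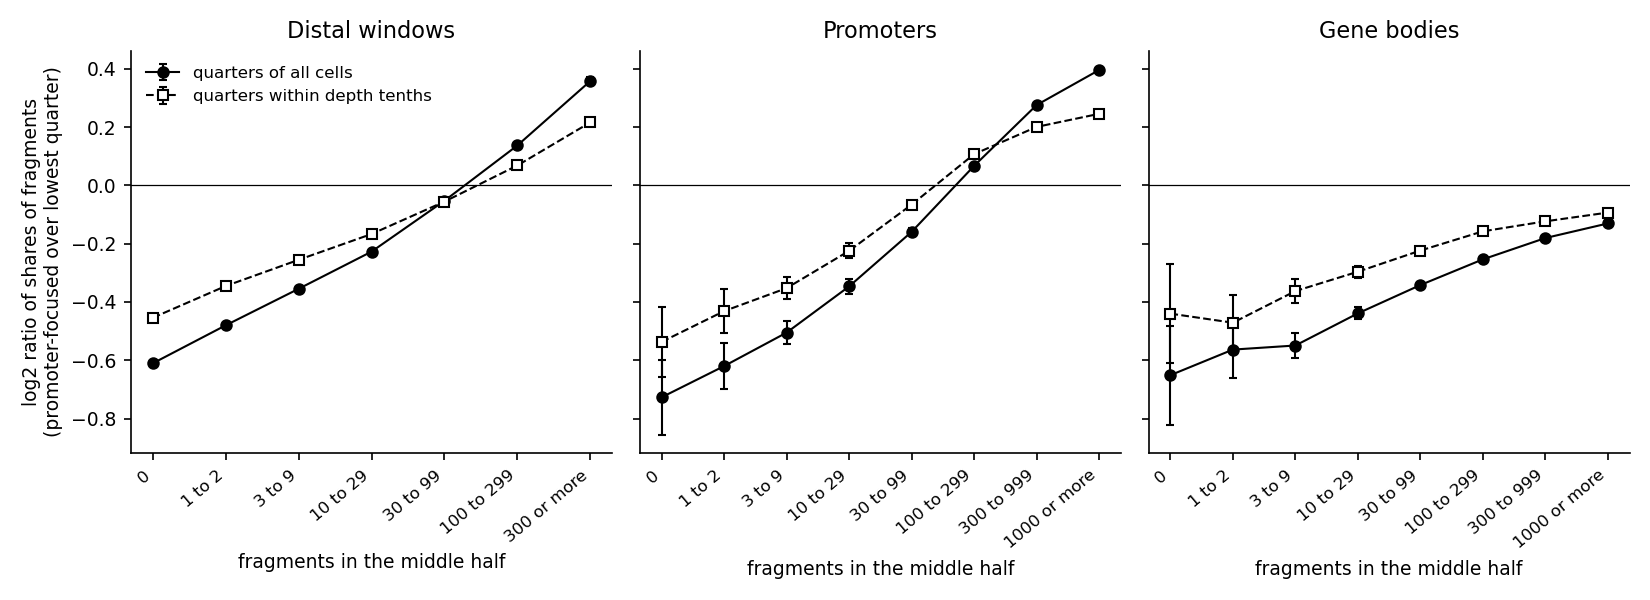
Log2 ratio of the share of nuclear fragments, promoter-focused over low-share cells, for distal windows, promoters and gene bodies in bins of their fragments in the middle cells, with 95% intervals of counting error, for groups drawn over all cells (circles) and within 10 bins of ATAC fragments (squares). Distal windows and promoters go from below 0 in the weakest bin to above 0 in the strongest. Gene bodies, whose total the rule tends to lower, stay below 0.

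Sequences are shown for sites at the ends of the ranking within each class, to let a reader compare the base composition of promoters and the motifs of distal windows. They were picked after their values were seen. Promoters come from the RefSeq table (GRCm38.p6, the mm10 build), are written 5′ to 3′ in the direction of the gene, end before the first annotated start, and have each CpG in capitals. The first pair were high in promoter-focused cells and the second pair low.
Klf2, chr8:72318812-72319032, + strand: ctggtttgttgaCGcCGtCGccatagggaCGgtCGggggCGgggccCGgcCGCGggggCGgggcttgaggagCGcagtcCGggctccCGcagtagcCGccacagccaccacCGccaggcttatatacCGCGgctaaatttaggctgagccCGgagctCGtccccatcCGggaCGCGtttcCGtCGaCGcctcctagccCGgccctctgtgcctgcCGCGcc
Hs6st1, chr1:36068150-36068399, + strand: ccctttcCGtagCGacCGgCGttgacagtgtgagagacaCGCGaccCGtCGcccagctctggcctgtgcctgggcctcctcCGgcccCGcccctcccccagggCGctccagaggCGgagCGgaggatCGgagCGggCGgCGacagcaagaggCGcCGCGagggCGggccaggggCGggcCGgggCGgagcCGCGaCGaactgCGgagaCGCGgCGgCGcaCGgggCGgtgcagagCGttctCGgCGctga
Tomm5, chr4:45108115-45108363, - strand: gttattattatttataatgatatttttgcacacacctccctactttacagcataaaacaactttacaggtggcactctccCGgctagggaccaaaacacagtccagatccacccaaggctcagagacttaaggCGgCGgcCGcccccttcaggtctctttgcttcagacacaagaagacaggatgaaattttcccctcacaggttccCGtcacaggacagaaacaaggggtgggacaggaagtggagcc
Zfp605, chr5:110109842-110110091, + strand: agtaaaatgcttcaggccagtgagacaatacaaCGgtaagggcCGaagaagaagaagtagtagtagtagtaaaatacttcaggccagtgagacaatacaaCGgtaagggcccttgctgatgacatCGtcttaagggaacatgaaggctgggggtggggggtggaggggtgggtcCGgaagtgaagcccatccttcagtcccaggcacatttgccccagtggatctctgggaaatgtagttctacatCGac
Over the whole RefSeq promoter of 300 bases, Klf2 had 32 CpG and Hs6st1 47, while Tomm5 and Zfp605 had 7 each. The median of 32851 promoters in the table was 7. These pairs show a contrast picked from overlapping ranges of CpG content. The 7 matched promoters on the high side had 1 to 47 CpG and the 8 on the low side 7 to 36, with AY036118 at 1 among the high ones and Rsbn1l at 33 and Plekha3 at 36 among the low ones.

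The distal windows below are the middle 300 bases of windows named later, on the + strand of mm10. Capitals mark the letters searched on both strands: CCGGAA for ETS factors, TGTGGT for RUNX, AGATAA for GATA, AGGAAGTG for PU.1, and TGANTCA for AP-1, with CCGGAA and AGGAAGTG both read by factors of the ETS family. The first had among the highest lower bounds in promoter-focused cells, and the other two were among the lowest.
Window nearest Rock2, chr12:16870601-16870900, + strand: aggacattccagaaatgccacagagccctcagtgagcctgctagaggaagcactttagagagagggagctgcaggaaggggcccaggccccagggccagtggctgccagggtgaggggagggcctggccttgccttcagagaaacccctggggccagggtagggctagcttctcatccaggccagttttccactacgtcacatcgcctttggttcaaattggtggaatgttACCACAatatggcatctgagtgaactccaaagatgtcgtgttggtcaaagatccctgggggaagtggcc
Window nearest Tmprss13, chr9:45300601-45300900, + strand: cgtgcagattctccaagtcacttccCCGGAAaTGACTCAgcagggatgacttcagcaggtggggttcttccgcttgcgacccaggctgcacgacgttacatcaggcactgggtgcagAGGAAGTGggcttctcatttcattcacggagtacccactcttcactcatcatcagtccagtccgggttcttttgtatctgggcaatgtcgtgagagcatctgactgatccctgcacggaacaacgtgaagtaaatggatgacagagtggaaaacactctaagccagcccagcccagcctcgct
Window nearest Fam49a, chr12:12546601-12546900, + strand: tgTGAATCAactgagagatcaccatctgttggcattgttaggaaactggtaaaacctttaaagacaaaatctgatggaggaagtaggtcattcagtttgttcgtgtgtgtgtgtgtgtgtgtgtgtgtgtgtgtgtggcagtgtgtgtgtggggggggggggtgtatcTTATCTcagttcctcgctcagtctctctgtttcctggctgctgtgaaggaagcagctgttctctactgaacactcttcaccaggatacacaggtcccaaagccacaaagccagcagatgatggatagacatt
These letters are matches, not shown to be bound. Of the 14431 distal windows with at least 50 fragments, 6.31% held CCGGAA in their middle 300 bases, 26.7% TGTGGT, 14.7% AGATAA, 6.25% AGGAAGTG and 12.1% TGANTCA.

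Promoters were then compared with each other. A promoter was 1 kb on each side of a gene start, and its fragments were scaled by all promoter fragments of the group, because the rule fixed the total. The ratio therefore says which promoters took more of the promoter signal. Of 12227 promoters with at least 200 fragments over both groups, 2 (0.0164%) were over 1.5 times higher in promoter-focused cells and 62 (0.507%) over 1.5 times lower. The split depended on the scaling: by all nuclear fragments 162 were higher and 2 lower, with the median of all promoters at 0.28. In depth-matched groups 3 (0.0247%) were higher and 13 (0.107%) lower of 12165. The counting interval left out 0 for 9.9% of promoters on the higher and 6.71% on the lower side. Nearly all promoters thus moved with their class, with an SD of 0.18 on the log2 scale. In 10 equal bins of fragments in middle cells, the median ran from -0.17 in the weakest bin to 0.14 in the strongest, and from -0.06 to 0.05 in depth-matched groups. Along CpG content the bins ran from -0.10 to 0.06. This difference of 0.16 became -0.0012 relative to promoters of the same strength.

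Klf2, a transcription factor gene linked to quiescence of blood cells and to vessel lining cells, was the immediate early gene with the highest promoter ratio. Its promoter had 627 fragments in promoter-focused cells and 596 in low-share cells, at a log2 ratio of 0.46 (0.30 to 0.63), and 0.30 in depth-matched groups. Low-share cells had fewer fragments there although they had more in all. Most of the other named promoters with the highest lower bounds were strong ones with small ratios. Dnpep, which encodes an aspartyl aminopeptidase, had 1146 and 1115 fragments, at 0.43 (0.31 to 0.55). Hs6st1, a sulfotransferase acting on heparan sulfate, had 355 and 341, at 0.45 (0.23 to 0.67). Fads3, of the fatty acid desaturase family, is a weak promoter and had the largest ratio, from 127 and 92 fragments, at 0.85 (0.46 to 1.26), and was at 0.37 in depth-matched groups. Adam9, a membrane protease, Wbp2, a transcriptional coactivator, Cnot8, a deadenylase of the CCR4-NOT complex, and the noncoding E130317F20Rik lay between 0.38 and 0.41, and between 0.088 and 0.16 in depth-matched groups. AY036118 at 0.36 and Gm42418 at 0.32 overlap on chromosome 17 and share their fragments. The same stretch holds the gene body of Gm26917, and regions known for artefacts were not masked here.

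The named promoters that were lowest in promoter-focused cells were weak ones, mostly in the weakest of the 10 bins. Rsbn1l had 64 and 152 fragments, at -0.85 (-1.30 to -0.43). Tomm5, a subunit of the translocase of the mitochondrial outer membrane, had 77 and 173, at -0.77 (-1.19 to -0.38). The zinc finger genes Zfp563 and Zfp605 were at -0.77 and -0.79, and Plekha3, which encodes a lipid-binding protein of the Golgi, at -0.75. Tmem100, known from vessel lining cells, was at -0.81. Dnah9, a dynein heavy chain of cilia at -0.82, and the noncoding Gm12296 at -0.79 start head to head and share fragments. Rin1, an effector of Ras, went from -0.82 to -0.11 in depth-matched groups, whereas the others named here stayed between -0.40 and -0.66.

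**Figure D4:**
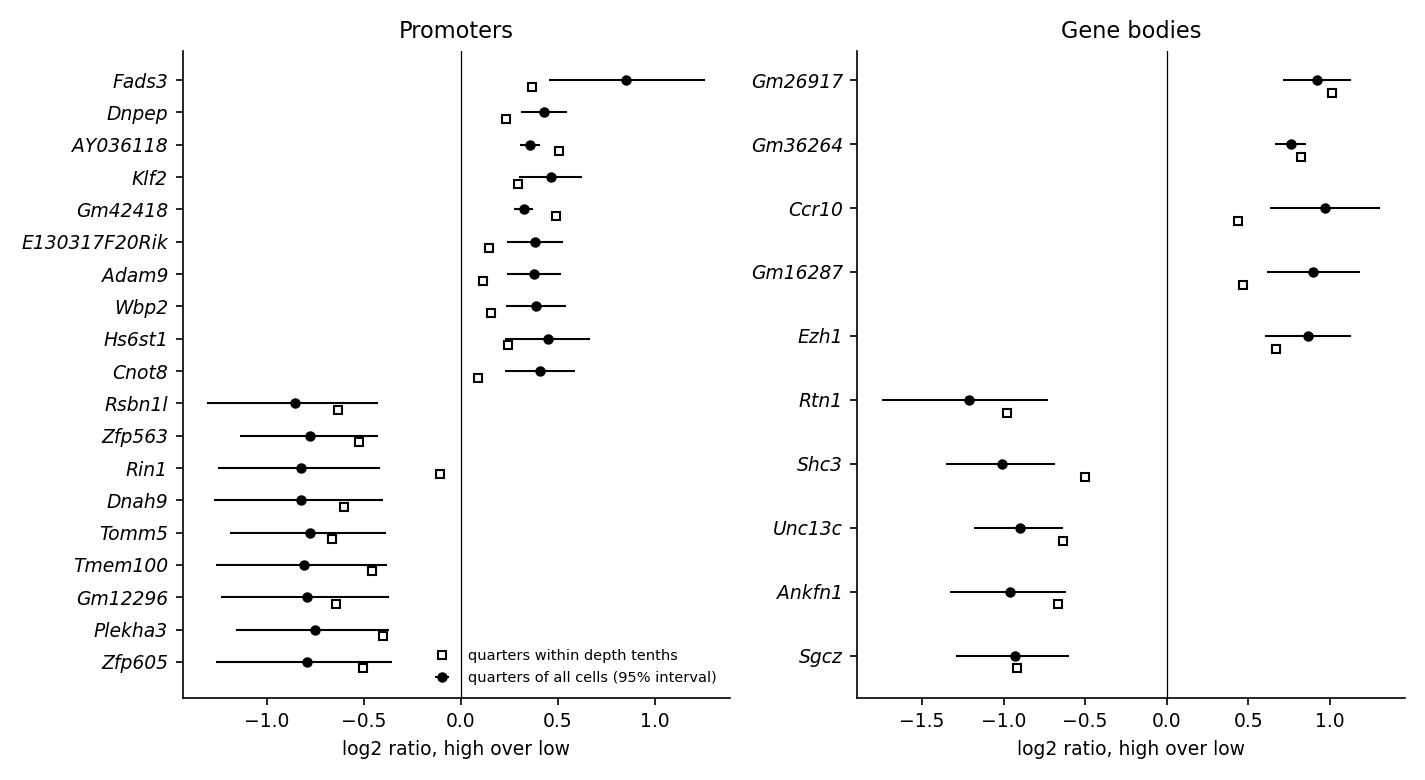
Log2 ratio, promoter-focused over low-share cells, of the promoters (left) and gene bodies (right) named by rank, scaled by all promoter or all gene body fragments, with 95% intervals of counting error (circles), and the ratio in groups drawn within 10 bins of ATAC fragments (squares). Of the promoters shown, high ones lie between 0.32 and 0.85 and low ones between -0.75 and -0.85, with 1 lower promoter not shown, and depth-matched values lie nearer to 0 for all but AY036118 and Gm42418 among promoters.

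Gene bodies divided by length and by how open they were. Of 8132 gene bodies compared, scaled by all gene body fragments, 59 (0.726%) were over 1.5 times higher in promoter-focused cells and 168 (2.07%) over 1.5 times lower. Short genes were higher, with a median of 0.23 in the shortest of 10 bins (median 9.25 kb) and -0.17 in the longest (369 kb). By fragments per kb in middle cells the bins ran from -0.30 to 0.27, and from -0.23 to 0.20 in depth-matched groups. With scaling by all nuclear fragments 6 were higher and 590 lower, with the median of all gene bodies at -0.18. That direction follows largely from the rule. In depth-matched groups 35 (0.436%) were higher and 78 (0.971%) lower of 8035. The interval left out 0 for 14.9% on the higher and 13.0% on the lower side.

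Ezh1, a catalytic subunit of Polycomb repressive complex 2, was among the 5 highest gene bodies, with 241 and 237 fragments and a ratio of 0.87 (0.60 to 1.13). Its ratio was 0.67 in depth-matched groups. Its neighbour Ccr10, a chemokine receptor gene, was at 0.97 (0.63 to 1.31), from 156 and 143 fragments, and at 0.44 in depth-matched groups. The others were the noncoding genes Gm26917 at 0.92, Gm16287 at 0.90 and Gm36264 at 0.76, of which Gm26917 and Gm36264 were higher still in depth-matched groups, at 1.02 and 0.82. Most fragments of the Gm36264 body, 1610 of 1809 and 1574 of 1917, lay in a single 500 bp window that is also among the distal windows described next, so these are not separate results. The 5 lowest gene bodies were long genes. Rtn1, a reticulon of nerve cells, had 42 fragments in promoter-focused and 176 in low-share cells, at -1.21 (-1.74 to -0.73). Unc13c, which primes synaptic vesicles, was at -0.90, the adaptor gene Shc3 at -1.01, Ankfn1 at -0.96 and Sgcz, a sarcoglycan, at -0.93. All 5 stayed below 0 in depth-matched groups, from -0.50 to -0.98.

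Single distal windows were compared where both groups together had at least 200 fragments, which left 1054 of the strongest. Scaled by all distal fragments, 372 (35.3%) were over 1.5 times higher in promoter-focused cells and 0 (0.0%) lower. Far fewer passed in depth-matched groups, as given with the other settings at the end. Their median was 0.52. Scaled by all nuclear fragments 65 windows passed, and relative to the median of the windows compared 4 (0.38%) were higher and 8 (0.759%) lower. The windows therefore moved mostly as one class.

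Of the windows with the highest lower bounds, 4 are described. A window between genes at chr12:16870501-16871000, nearest to the start of the kinase gene Rock2, had 132 and 107 fragments, at 1.21, and 0.87 in depth-matched groups. A window in an intron of Msi2, an RNA-binding protein known for a role in HSCs, at chr11:88625001-88625500, had 125 and 101, at 1.21, and 0.52 in depth-matched groups. The window nearest to Arid1b, a subunit of a chromatin remodelling complex, lay between genes at chr17:4908001-4908500 and held 68 CpG, against a median of 11 in the windows compared. Its ratio was 1.04. The window at chr13:9011501-9012000, in an intron of Gm36264, had 1610 and 1574 fragments, and was at 0.94 and, in depth-matched groups, 1.02. The lowest windows had ratios near 0, which put them about 1.5 times below the median. They were at -0.16 (an intron of 2310043O21Rik, chr15:38567001-38567500), -0.12 (between genes, nearest to Tmprss13, chr9:45300501-45301000), -0.10 (an intron of Rpa1, chr11:75313501-75314000) and -0.05 (between genes, nearest to Fam49a, chr12:12546501-12547000). In depth-matched groups they were, in the same order, at -0.06, 0.20, -0.14 and -0.08.

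Motifs of blood cell factors hardly separated the distal windows. Over the 14431 windows with at least 50 fragments, the median ratio was 0.27 with the PU.1 letters and 0.30 without, 0.28 and 0.31 for RUNX, 0.28 and 0.30 for GATA, 0.28 and 0.30 for AP-1, 0.33 and 0.29 for ETS, and 0.31 and 0.29 for CTCF, here searched over the full 500 bp. Along CpG content the medians ran from 0.25 to 0.40 between the lowest and the highest of 10 bins, and from -0.021 to 0.046 relative to windows of the same strength. Along strength they ran from 0.17 to 0.49.

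Over all sites together, fragments of promoter-focused cells were shorter. Fragments at starts were short more often than distal ones. The rule gave promoter-focused cells more fragments at starts, so part of the difference over all sites follows from the rule. The share below the length of DNA wrapped in a nucleosome was 34.5% in promoter-focused, 32.8% in middle and 31.5% in low-share cells, and 33.6% against 32.0% in depth-matched groups. Within classes the difference was smaller. At starts the shares were 42.4% and 40.6%, and in open distal windows 36.9% and 35.6%. In depth-matched groups the open distal windows had 35.9% in both. In the other distal windows the order was the opposite, 12.5% in promoter-focused and 13.4% in low-share cells.

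Gene lists asked which known programmes moved within these classes. Bodies of immediate early genes, the genes switched on within minutes of a stimulus, had higher ratios than most gene bodies in these groups, but the values depended on the processing. Of 21 members 11 had enough fragments, 2 of the 11 passed 1.5 times upward against 0.726% of all gene bodies, and the median was 0.41 against 0.01 over all. The members that passed were Fosl2, with 231 and 247 fragments at 0.75 (0.48 to 1.01), and Junb, with 107 and 128 at 0.59 (0.20 to 0.97), both partners in the AP-1 complex. Jun was at 0.54, Fos at 0.42 and Nr4a1, an orphan nuclear receptor, at 0.32, while Atf3 at 0.14 and the phosphatase gene Dusp1 at 0.06 were the lowest. Several of these genes are short, and the shortest bin of all gene bodies had a median of 0.23. The list's median was 0.16 in depth-matched groups, over a different set of members that had enough fragments there. The depth-matched values of the 11 above ran from 0.01 for Dusp1 to 0.57 for Klf4, with Fosb in the middle at 0.28. Scaled by all nuclear fragments the median was 0.22 (all gene bodies -0.18), and 0 members passed in either setting. With short fragments alone it reversed to -0.094, over the 2 members that had enough. The promoters of the same list had a median of 0.10 over 20 members, none past 1.5 times, with Klf4 at 0.26 and Klf6 at 0.25 behind Klf2, and Dusp1 lowest at -0.28.

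Genes of HSC identity had a median near that of all genes, and Gata2 had the highest body ratio among them. Its body had 521 and 617 fragments, at 0.60 (0.43 to 0.77), and was the only 1 of 17 members past 1.5 times, against 0.726% of all gene bodies. It was at 0.30 in depth-matched groups, where it no longer passed, and its promoter at -0.25 (-0.60 to 0.08). Lmo2, a partner of GATA factors, was at 0.38 (0.21 to 0.55) and Mecom, a transcription factor needed by HSCs, at 0.24 (0.17 to 0.30), from 3021 and 4608 fragments. Slamf1, which encodes the sorting marker CD150, was at -0.05 and the receptor gene Tek lowest, at -0.38. The list's median was 0.08 for bodies and 0.07 for promoters, with Runx1 at 0.21 and Robo4 at -0.47 as the ends of the 16 promoters. The body median was -0.11 with scaling by all nuclear fragments, against -0.18 for all gene bodies, and 0 members passed. All 7 HOX gene bodies with enough fragments lay above the median of all bodies, from 0.07 for Hoxc4 to 0.58 for Hoxc9. None passed 1.5 times. Gene length was not matched for this list, and the shortest bin of all gene bodies had a median of 0.23.

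Of 20 promoters of megakaryocyte and platelet genes, 6 had enough fragments, with a median of -0.27 against 0.01 for all promoters. None of the 6 passed 1.5 times, against 0.507% of all promoters on the lower side. Gp1ba, a platelet glycoprotein, had 121 and 227 fragments at -0.52 (-0.85 to -0.19), Gp9 was at -0.49 and the platelet chemokine gene Pf4 at -0.34, while Itga2b was at 0.01 and the transcription factor gene Nfe2 at 0.14. The median was -0.17 in depth-matched groups. All of these but Nfe2 are weak promoters in these cells. Over all promoters, the 3 weakest of the 10 bins had medians of -0.17, -0.14 and -0.09, and -0.06, -0.04 and -0.03 in depth-matched groups. The part of strength in the list's values was not tested. Bodies of the same list had a median of 0.11 over 8 members, with Plek at 0.32. Vwf was at 0.22 (0.12 to 0.33), from 1280 and 1968 fragments. The paper calls its reporter only moderately selective for platelet-biased HSCs.

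The panels that the study used for platelet-biased (PLT) and multi-lineage (MUL) HSCs had mixed values, with no member that had enough fragments past 1.5 times. Of the PLT panel, Inhba, a subunit of activin, was at 0.35, Vwf at 0.22, the growth factor gene Pdgfc at 0.20 and Gpr4 at -0.07 in gene bodies, while at promoters Inhba was at 0.24 and Pdgfc at -0.29. Of the MUL panel, the receptor gene Flt3 was at -0.26 in its body and -0.32 at its promoter, Sec16b at -0.14 in its body and Crip2 at -0.20 at its promoter. In depth-matched groups the bodies of Inhba, Vwf, Pdgfc and Gpr4 were at 0.34, 0.19, 0.14 and -0.29, and that of Flt3 at -0.15. The promoters of Inhba, Pdgfc and Flt3 were then at 0.25, -0.20 and -0.34, and Sec16b (body) and Crip2 (promoter) at 0.00. Plek2, Clec4d and Ctla2a had too few fragments for promoters and bodies alike. Longer lists of genes that mark PLT and MUL clones were also compared. The PLT clone genes had medians of 0.06 for promoters and 0.03 for bodies, and the MUL clone genes -0.06 and -0.07. Of 33 MUL clone promoters compared, 1 passed 1.5 times on the lower side, against 0.507% of all promoters, and it is the promoter not reported here.

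Other lists gave small or mixed values. Genes known to rise in old HSCs had a body median of 0.11 over 14 members, led by Fhl1 at 0.53 (0.26 to 0.81). The promoters of ribosomal protein genes had a median of 0.05 over 76, DNA replication -0.01 over 33, mitosis -0.01 over 25, proteasome -0.04 over 30, interferon response -0.10 over 12 and replication-dependent histones -0.07 over 47 members. Of all these promoters 1 passed 1.5 times, against 0.507% of all promoters on the lower side. It was that of Bub1b, a checkpoint kinase of mitosis, at -0.68. For B cell promoters the median was -0.24 over 3, for erythroid promoters -0.05 over 5 and for myeloid promoters 0.00 over 4 members. Myeloid bodies had a median of 0.28 over 7, with Gfi1 at 0.55 and Csf2rb at -0.45. Summed over all 1092 olfactory receptor genes, which are silent in blood, the promoters had 783 and 1628 fragments, at -0.67 (-0.79 to -0.54), and -0.44 in depth-matched groups.

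Promoters of HSC markers held fragments in both groups, but unevenly over the genes. The promoters of 8 HSC markers together had 221 CPM (fragments scaled to the nuclear total) in promoter-focused and 174 in low-share cells, where the promoters of all 21755 protein-coding genes had 431514 and 354578. By gene the HSC markers had a median of 26.5 and 21.4 CPM, against 9.72 and 9.38 over all protein-coding genes. Ctnnal1 was the highest of the 8, at 55.8 and 43.7, while Procr had 7.86 and 6.93 and Mecom only 3 and 4 fragments. The lists differ in their number of genes, so their sums cannot be set against each other. The promoters of 4 T cell markers had 4.53 and 4.73 CPM, with Cd4 and Cd8a at 0 to 2 fragments. Erythroid markers had 23.7 and 24.8, B cell markers 16.3 and 16.3, and megakaryocyte markers 71.5 and 73.3. Myeloid markers had 61.0 and 51.1, mostly at Cebpa and Spi1, which HSCs also use, and stromal and endothelial markers 37.8 and 33.0. Their part in the results was not tested.

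RNA did not enter the rule. Promoter-focused cells had fewer RNA molecules, with a median of 1724 UMIs (middle 50% of cells 1476.5 to 2058.5) against 2316 (1927 to 2777) in low-share and 1956 in middle cells. The ratio of medians was 0.744, and 0.847 in depth-matched groups, from 1845 and 2178 UMIs. Detected genes followed, at 1091 and 1359, without correction for UMIs. The share of intronic UMIs was higher in promoter-focused cells, at 38.6% against 35.1%, and at 37.1% against 35.8% in depth-matched groups. RNA per ATAC fragment turned with the matching: promoter-focused cells had 216 UMIs per 1000 fragments against 180, but 187 against 210 in depth-matched groups.

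Among the antibodies, promoter-focused cells had more CD201 tags. Levels were below 1 tag per cell, and the background of free antibody was not measured here. CD201 is the endothelial protein C receptor, encoded by Procr, and is a marker of HSCs with strong repopulating capacity. Its mean was 0.486 tags per cell (0.442 to 0.534) in promoter-focused and 0.323 (0.287 to 0.362) in low-share cells. From the lowest to the highest share, the 4 equal parts of the cells had means of 0.323, 0.381, 0.464 and 0.486. The ratio of 1.51 (1.30 to 1.75) was 1.56 in depth-matched groups and 1.43 without cells with excess overlaps. Within the 10 bins of ATAC fragments the ratio was above 1 in 10 of 10, from 1.08 to 3.48, and was largest in the deepest bin, where the medians still differed, at 18594 and 16200.5 fragments. In that bin CD274 was also higher, at 2.20, and P2X7R at 1.48, so the value there was not particular to CD201. Without the deepest 5% of cells by ATAC fragments or UMIs the CD201 ratio was 1.42. Tags of all antibodies were 1.07 times higher, and per tag the CD201 ratio was 1.41. Across cells the rank correlation of CD201 and the share at TSS was 0.0814, so the relation was weak in any one cell. CD274 was at 0.0615 and the tags of all antibodies together at 0.0603, so by rank CD201 stood little apart from them. The Procr promoter had 59 and 82 fragments, too few for comparison by the minimum used here, at -0.08 (-0.59 to 0.41).

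P2X7R, an ATP-gated channel encoded by P2rx7, was lower on promoter-focused cells. Its mean was 0.493 tags per cell (0.448 to 0.541) against 0.633 (0.582 to 0.687), at a ratio of 0.779 (0.687 to 0.883), and 0.816 in depth-matched groups. The order was less stable than for CD201, since 8 of 10 bins of ATAC fragments were below 1 and 2 above. At P2rx7 itself the ratios were -0.14 (-0.51 to 0.22) for the promoter and 0.07 (-0.10 to 0.24) for the body.

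**Figure D5:**
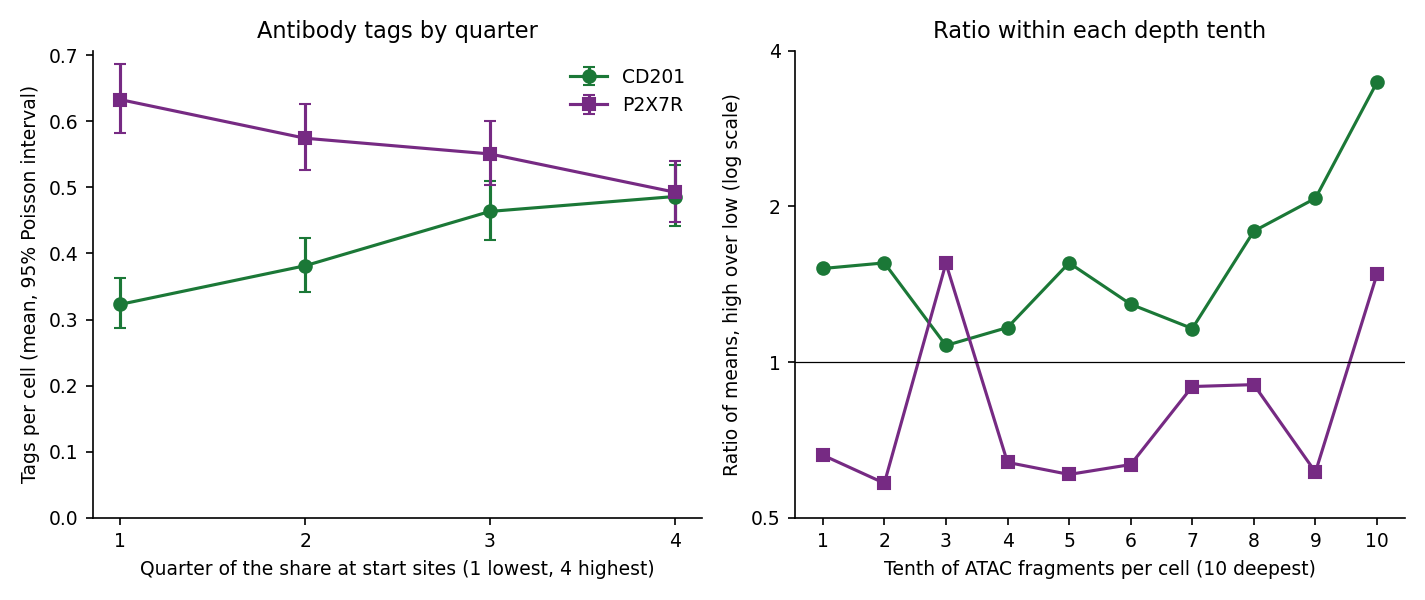
Left, mean tags per cell of CD201 and P2X7R in the 4 equal parts of the cells by share at TSS, with exact 95% Poisson intervals. Right, ratio of the means, promoter-focused over low-share cells, within each of 10 bins of ATAC fragments (90 cells on each side; log scale); CD201 lies above 1 in 10 of 10 bins and P2X7R in 2.

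The 4 antibodies that the study gated on differed less. CD274 (PD-L1) had a mean of 21.8 and 19.9 tags, at 1.10 (1.07 to 1.12). It was above 1 in 6 of 10 depth bins, from 0.929 to 2.20, the last in the deepest bin. CD61 (integrin beta 3) was at 1.01 (0.960 to 1.06), CD357 (GITR) at 1.05 and CD27 at 0.955 (0.864 to 1.05). Among the rest, MERTK, a receptor for dying cells, was at 1.06 and at 1.31 (1.17 to 1.47) in depth-matched groups. CD106 was at 0.972, CD68 at 0.798, CD183 at 0.902, and the macrophage proteins CD163 and CD206, with few tags, at 0.759 and 1.04. The antigen genes with enough fragments lay between -0.27 for Cd27 and 0.19 for Mertk at promoters and between -0.10 for Cd163 and 0.11 for Itgb3 in bodies, with no member past 1.5 times.

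A PLT gate was set here on raw tag counts, without the thresholds of the study. It took cells high in CD61 and CD274 and low in CD357 and CD27, each divided at its median. It held 97 promoter-focused cells, 10.7% (8.76 to 12.9), and 72 low-share cells, 7.94% (6.26 to 9.89). The ratio was 1.35, with a counting interval of 0.983 to 1.85. The opposite MUL gate held 14 and 17 cells, 1.54% and 1.87%.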

How the data were processed

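ATAC, RNA and antibody libraries of 1 pool of LT-HSCs were analysed. Per the labels, the authors used Cell Ranger ARC 2.0.2 with mm10, which calls cells, collapses duplicate read pairs and counts fragments overlapping TSS. What the authors deposited are raw counts: fragments, totals per barcode and antibody tags. No version of the antibody counter was found in the labels or the paper.

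All 3724 cells with antibody counts were called cells, and 3629 had at least 10 tags. Doublets were not removed. Gene and transcript starts came from GENCODE M21, for protein-coding, long noncoding, immunoglobulin and T cell receptor genes. Starts of other types, such as pseudogenes and small RNAs, were left out. A fragment was placed by its midpoint. For log2 ratios a pseudocount of 0.5 was used, with exact conditional binomial intervals. A feature needed 200 fragments over both groups and was called past 1.5 times.

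The named genes were, by lower and upper bound, 10 and 10 promoters, 5 and 5 gene bodies and 5 and 5 windows, the 2 highest and 2 lowest members of each list (not all of which are printed), the 12 antigen genes and the panels. Further members were picked after their values were seen. In all, 1 promoter and 2 windows of that rule, and some list members, are not reported here. Of the 20 named promoters, 15 matched the RefSeq table. The groups and lists were chosen with earlier results of these data known. The groups were drawn from the same fragments that the ATAC comparisons count. Alternatives were another tag minimum, depth matching, the highest and lowest 1 in 10 cells in place of 1 in 4, cells left out, other scalings and minimums, and nucleosome-free fragments. The RNA matrix was not used. Software was Python 3.11.15, numpy 2.4.6, scipy 1.17.1, pandas 2.3.3 and matplotlib 3.10.9.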

Additional observations from a re-analysis of the deposited data

Results flagged for a closer look

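Tags that matched no antibody enter no comparison above. They had a mean of 4.11 per promoter-focused cell and 4.57 per low-share cell, a ratio of 0.900, and 0.997 in depth-matched groups.

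The mice were female, and fragments were still listed on chromosome Y, at 183 CPM of all nuclear fragments in promoter-focused and 199 CPM in low-share cells. These fragments were left out of all other values.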

How the results depend on the processing

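No paired analysis was possible because all cells came from 1 pool. Of the values recomputed under alternatives, 45 stayed within an interval or within 1.5 times the main count, 60 moved and 3 reversed. For ratios of RNA medians and medians of gene lists, the interval had the width of that for summed counts. The CpG difference had no interval and was counted as moved. It went from above to just below 0 relative to promoters of the same strength. Of 30 values for named promoters and gene bodies, 17 stayed, 13 moved and 0 reversed. Named windows were not in this tally. Of those reported, only that nearest to Tmprss13 changed sign in depth-matched groups, from -0.12 to 0.20. Causes were not tested. Counts of features past 1.5 times moved under most settings. The number of features with enough fragments changed with some settings too, so these counts are not shares. At least 50 tags were found in 363 of 3629 cells. With a minimum of 50 fragments, 14431 distal windows were compared in place of 1054.

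The promoter count of 64 became 3 with at least 50 tags per cell, 16 in depth-matched groups, 41 for the highest and lowest 1 in 10 cells, 164 scaled by all nuclear fragments, 1104 with a minimum of 50 fragments, 0 past 2 times, 23 relative to promoters of the same strength, 18 with short fragments alone and 483 with both fragment ends counted. In the same order of settings, where they moved it, the gene body count of 227 became 12 with at least 50 tags, 113 depth-matched, 596 scaled by all nuclear fragments, 1388 with the lower minimum, 3 past 2 times, 72 with short fragments and 622 with both ends. The distal window count of 372 became 1 with at least 50 tags, 114 depth-matched, 62 for 1 in 10 cells, 65 scaled by all nuclear fragments, 3348 with the lower minimum, 13 past 2 times, 103 at least 50 kb from a start, 82 with short fragments and 1035 with both ends. Relative to the median of the windows it was 12, and 14 in depth-matched groups, both chosen after seeing the data.

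The log2 ratio of open windows over 10 kb, -0.058, was -0.067 with at least 50 tags, -0.048 depth-matched, -0.072 without cells with excess overlaps, -0.078 without the deepest 5% of cells by ATAC fragments or UMIs and -0.043 with groups drawn on fragments counted here near gene starts. That of the other windows, -0.48, was -0.40, -0.36, -0.45, -0.44 and -0.48 in the same settings, and -0.70 for 1 in 10 cells. The ratio for short fragments, 0.13, was 0.068 depth-matched. The ratio of median UMIs, 0.744, was 0.825 with at least 50 tags, 0.847 depth-matched, 0.651 for 1 in 10 cells, 0.756 without excess overlaps, 0.774 without the deepest cells and 0.736 with groups drawn on the count near gene starts. The ratio of UMIs per 1000 fragments, 1.198, reversed to 0.892 depth-matched, and was 1.197 with at least 50 tags, 1.27 for 1 in 10 cells, 1.18 without excess overlaps and 1.21 without the deepest cells. CD201 went from 1.51 to 1.91 with at least 50 tags, and P2X7R from 0.779 to 0.679 for 1 in 10 cells.

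The median of HSC identity gene bodies, 0.08, was 0.13 depth-matched, 0.18 for 1 in 10 cells, 0.051 with a minimum of 50 fragments, and reversed to -0.11 scaled by all nuclear fragments, which also moved the median of all gene bodies from 0.01 to -0.18. That of immediate early gene bodies, 0.41, was 0.16 depth-matched, over a different set of members. It was 0.48 for 1 in 10 cells, 0.34 without the deepest cells, 0.22 scaled by all nuclear fragments, and reversed to -0.094 with short fragments, where 2 members had enough. The CpG difference between promoters, 0.16, was -0.0012 relative to promoters of the same strength and 0.094 depth-matched.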
